A study of Mus musculus with 6 samples.

Results

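Collagen, extracellular matrix and stellate cell genes were followed across 6 mouse liver libraries. The group was 44 named genes, matched by gene symbol in a table of 34745 genes; all 44 were found. They were split by role into 5 genes of quiescent stellate cells, 5 fibril collagens, 12 fibril partners and elastic fibre genes, 7 basement membrane genes, 8 remodelling enzymes and inhibitors, and 7 contractile and signalling genes. The libraries were made from messenger RNA of normal, precancerous and tumour liver, with 1 library for each tissue in each sex. Normal liver came from wild-type C57BL/6 mice. Precancerous liver, adjacent to tumour, and liver tumour (hepatocellular carcinoma, the cancer of hepatocytes) came from Hras12V transgenic mice of the same strain, which carry an activated Ras gene. The age was 9 months in all male groups and 15 months in all female ones, so age and sex cannot be told apart, and no mouse was treated. The labels name neither the promoter of the transgene nor any pooling of mice. They do not tie tumour and precancerous samples to single mice.

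Hepatic stellate cells are pericyte-like cells that lie between the sinusoidal endothelium and the hepatocytes. At rest they store vitamin A as retinyl esters. On injury they can turn into myofibroblasts, which make smooth muscle actin and lay down fibrils of type I and type III collagen, and this is the main source of scar in liver fibrosis. The basement membrane is a separate sheet of type IV collagen, laminin, nidogen and heparan sulphate proteoglycans, which a normal sinusoid holds only in a thin and incomplete form. Enzymes crosslink these proteins, metalloproteinases cut them, and tissue inhibitors of metalloproteinases (TIMPs) block the cutting.

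Total counts were between 5996585 and 7347064 in the 3 male libraries and between 15047022 and 18434508 in the 3 female ones. Levels are given in FPKM, fragments scaled to gene length and library total, always in the order normal, precancerous and tumour. The smallest level that 3 counts allow was between 0.163 and 0.50 FPM, that is, counts scaled to the library total. All 7 hepatocyte markers, albumin among them, were above 1 FPKM in at least 1 library, with summed levels from 35852 to 65947 FPKM. A tissue was compared with another over both sexes with edgeR's quasi-likelihood test, and a gene was called at an adjusted p under 0.05. With 2 residual degrees of freedom, the p-values measure only the spread between these libraries. For a single pair of libraries there is no test. There the ratio of counts per library total is given with an exact 95% interval, which covers counting error only. Of the 44 members, 36 reached 1 FPKM in 2 or more libraries and were tested. The other 8 were Col6a2, Col12a1, Fbn1, Eln, Lamb1, Lox, Loxl1 and Pdgfra.

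Tumour was first set against precancerous liver. Fibril collagens, type IV collagen, nidogen, a TIMP and smooth muscle actin were higher in the tumours, while the vitamin A enzyme Lrat and the proteoglycan decorin were lower. Of the 36 tested members, 19 rose and 3 fell, where 13.8% and 12.1% of all 11435 genes tested rose and fell. Among the 19, Timp1, Loxl2, Col1a2, Col5a2 and Col6a3 reached 1 FPKM in the tumour libraries only. Outside the tumours, Col1a1 reached it in the female normal library alone, at 1.40 FPKM. The entry of all these genes to the test thus depended on their tumour level, and their rise is no independent support. The median log2 fold change of the 36 was 0.95, beside 0.03 for all genes tested. By direction alone, 37 of all 44 members were higher in the tumour in both sexes and 6 were lower in both, and 1, Des, differed in direction between the sexes. These include untested members and ratios close to 1. In the fit 31 of the 36 had a positive log2 fold change, beside 5943 of all 11435 genes. Leaving out each library in turn kept 8 of the 22 calls under all 6 omissions, those of Lrat, Col1a1, Col1a2, Col3a1, Col6a3, Col4a1, Col4a2 and Nid1. Each omission leaves fewer residual degrees of freedom, here and in the comparisons below. No share of calls kept over all genes tested is given beside these counts, so a lost call need not be particular to the members. In bulk tissue, fewer cells of a type and less RNA per cell cannot be told apart.

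**Figure D1:**
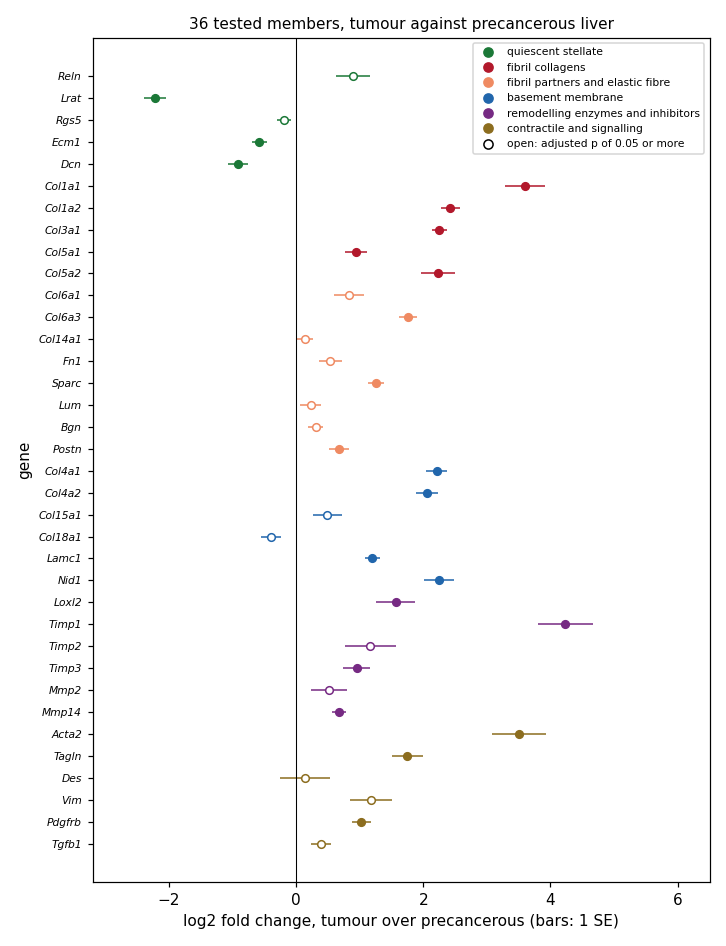
Log2 fold change of tumour over precancerous liver for the 36 tested members (edgeR, both sexes), with bars of 1 standard error, coloured by role; filled points had an adjusted p under 0.05. All 5 fibril collagens lie to the right of 0 as filled points, while 3 of the 5 quiescent stellate genes lie to the left as filled points. Of the fibril collagens, Col1a1, Col1a2 and Col5a2 passed the filter on low values only with the tumour libraries.

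The genes of quiescent stellate cells did not move as 1 group. Of the 5, Lrat, Dcn and Ecm1 fell, and Reln and Rgs5 did not pass the test; the median log2 fold change was -0.58. Lrat encodes the lecithin retinol acyltransferase that makes retinyl esters. Its level was 4.30, 3.74 and 0.992 FPKM in males and 3.46, 3.48 and 0.649 FPKM in females. Both tumours were below all 4 other libraries, and the normal and precancerous levels of a sex lay close together. Over both sexes the log2 fold change was -2.22 (SE 0.17, adjusted p = 0.00303). The male tumour held 0.265 times the share of Lrat counts of the male precancerous library (interval 0.181 to 0.381), and the female tumour 0.187 times that of the female one (0.140 to 0.246).

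Lrat lies on the minus strand of chromosome 3 (82892579 to 82903973, GRCm38). The 250 bases upstream of its start are shown because it had the lowest log2 fold change of the 36 tested members (RefSeq, GRCm38.p6, chr3:82903975-82904224, minus strand). Capitals mark TATAA, the core of the TATA box, CCAAT, the CCAAT box, and GGAATG, an element known as MCAT, each on either strand.
Lrat: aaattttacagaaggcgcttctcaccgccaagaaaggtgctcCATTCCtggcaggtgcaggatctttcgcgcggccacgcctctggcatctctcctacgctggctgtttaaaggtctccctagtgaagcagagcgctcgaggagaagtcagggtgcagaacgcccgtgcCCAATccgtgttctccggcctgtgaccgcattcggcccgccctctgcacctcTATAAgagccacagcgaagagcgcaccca
All 3 motifs occur in this window. Among 32851 RefSeq promoter windows of the same length, 22.8% held TATAA, 33.8% CCAAT and 12.6% GGAATG. Entries were found for 29 of the 44 members, and 6, 12 and 7 of these held the motifs in the same order. A match is a run of letters and shows no binding.

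Dcn encodes decorin, a small proteoglycan that coats collagen fibrils. It was the most abundant gene of the 5 per length in every library, at 63.1, 74.4 and 43.4 FPKM in males and 132, 141 and 71.1 FPKM in females. Each tumour was the lowest of its sex, but the female tumour lay above the male normal library, so the tissues overlapped across the sexes. The log2 fold change was -0.91 (SE 0.15, adjusted p = 0.0149), and the call was lost without the male precancerous (adjusted p = 0.14), the female tumour (0.068) or the female precancerous library (0.115).

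Ecm1 encodes extracellular matrix protein 1, a secreted glycoprotein that restrains the activation of latent TGF beta in liver. It read 13.4, 8.85 and 5.92 FPKM in males and 45.9, 29.7 and 20.6 FPKM in females. Levels stepped down from normal to precancerous to tumour in each sex, and every female library was above every male one. Between tumour and precancerous liver the log2 fold change was -0.58 (SE 0.12, adjusted p = 0.0237). The call was lost without any of the 4 libraries compared, with an adjusted p from 0.0627 without the male tumour to 0.20 without the male precancerous library; it was 0.0717 without the female tumour and 0.15 without the female precancerous library.

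Reln encodes reelin, a large secreted glycoprotein that marks stellate cells in liver. In contrast to the 3 genes above, its level was highest in the tumours, at 1.91, 1.69 and 4.75 FPKM in males and 2.71, 3.17 and 4.08 FPKM in females. The male tumour had 2.81 times the male precancerous share (interval 2.47 to 3.21), and the female tumour 1.29 times (1.20 to 1.38). Over both sexes it missed the threshold in edgeR (log2 fold difference 0.90, SE 0.26, adjusted p = 0.0626), passed without the female tumour library (adjusted p = 0.0124), and passed in DESeq2 (0.0282). Rgs5, a regulator of G protein signalling found in pericytes, read 10.6, 12.1 and 11 FPKM in males and 9.56, 12.3 and 10.9 FPKM in females. These 6 values span a narrow range, and the log2 fold change was -0.19 (SE 0.10, adjusted p = 0.232).

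**Figure D2:**
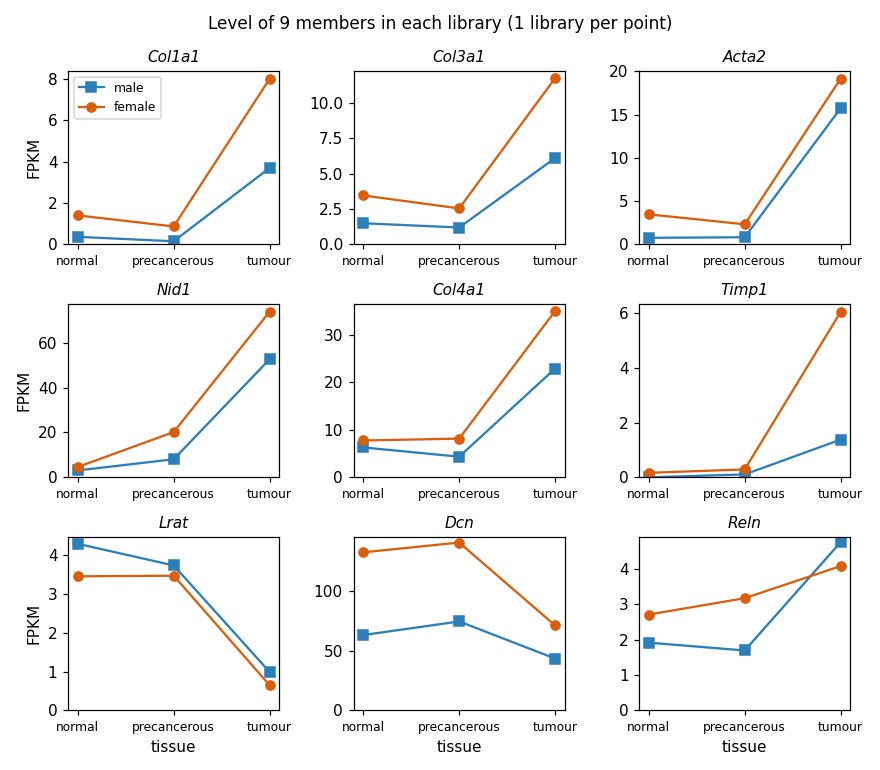
FPKM of 9 members in normal, precancerous and tumour liver, males as squares and females as circles, 1 library per point and therefore no error bars; each panel starts at 0 and has its own scale. Col1a1, Col3a1, Acta2, Nid1, Col4a1 and Timp1 are highest in the tumour of each sex, Lrat and Dcn are lowest there, and Reln reaches 4.75 FPKM in the male tumour and 4.08 FPKM in the female tumour.

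All 5 fibril collagens rose in tumour over precancerous liver, with a median log2 fold change of 2.25. Col1a1, Col1a2 and Col5a2 passed the filter on low values only with the tumour libraries. The count of 5 and its median are therefore no independent support. The summed level of the 5 was 3.49, 2.47 and 14.5 FPKM in males and 8.43, 6.13 and 28.4 FPKM in females. It was thus lowest in the precancerous library of each sex. Col1a1, the alpha 1 chain of type I collagen (chromosome 11, 94936224 to 94953042), had the largest log2 fold change of the 5. Its level was 0.361, 0.146 and 3.69 FPKM in males, from 15, 7 and 188 counts, and 1.40, 0.863 and 8.0 FPKM in females. Both tumours were above all 4 other libraries, and the male precancerous library was the lowest of all. Its log2 fold change was 3.6 (SE 0.31, adjusted p = 0.00355). The male ratio was 25.2 with a wide interval (12.0 to 63.5), since the male precancerous library held 7 counts, and the female ratio was 9.27 (7.47 to 11.6).

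Col1a2, the alpha 2 chain that joins the Col1a1 product in type I collagen (chromosome 6, 4504814 to 4541544), read 0.442, 0.269 and 1.77 FPKM in males and 0.957, 0.722 and 3.52 FPKM in females. Both tumours were again above the other 4 libraries (log2 fold difference 2.43, SE 0.15, adjusted p = 0.00261). The mature trimer holds more of the alpha 1 chain than of the alpha 2 chain. The ratio of Col1a1 to Col1a2 in FPKM was 0.815, 0.545 and 2.08 in males and 1.46, 1.20 and 2.27 in females, highest in the tumour of each sex.

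Col3a1, the chain of type III collagen found early in scar, was the most abundant fibril collagen per length in all 6 libraries. It read 1.49, 1.19 and 6.11 FPKM in males and 3.46, 2.54 and 11.8 FPKM in females. Each tumour stood above the 4 other libraries, with ratios to precancerous liver of 5.14 in males (interval 4.09 to 6.52) and 4.63 in females (4.16 to 5.15). The log2 fold change was 2.25 (SE 0.12, adjusted p = 0.00243), the lowest adjusted p among the members in this comparison.

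Col3a1 and Col5a2 lie 24614 bases apart on chromosome 1 on opposite strands (Col3a1 from 45311538 to 45349706, Col5a2 from 45374321 to 45503282). Their log2 fold changes were 2.25 and 2.23. The 250 bases upstream of Col3a1 are shown because the gene had the lowest adjusted p of the members that rose (RefSeq, GRCm38.p6, chr1:45311288-45311537, plus strand), with the same 3 motifs in capitals.
Col3a1: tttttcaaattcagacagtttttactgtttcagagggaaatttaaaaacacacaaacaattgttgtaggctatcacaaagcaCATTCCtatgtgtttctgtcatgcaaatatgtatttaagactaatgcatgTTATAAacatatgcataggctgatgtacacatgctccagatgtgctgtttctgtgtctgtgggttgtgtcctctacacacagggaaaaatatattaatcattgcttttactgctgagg
TATAA (read on both strands, overlapping) and GGAATG on the opposite strand are present, and CCAAT is not in this window.

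Col5a2 and Col5a1 encode chains of type V collagen, which starts and limits type I fibrils. Col5a2 read 0.396, 0.373 and 1.85 FPKM in males and 0.987, 0.513 and 2.32 FPKM in females, with both tumours highest (log2 fold difference 2.23, SE 0.27, adjusted p = 0.00682). Col5a1 read 0.797, 0.496 and 1.04 FPKM in males and 1.63, 1.48 and 2.81 FPKM in females (log2 fold difference 0.94, SE 0.18, adjusted p = 0.0195), and its tumour values overlapped with the female normal and precancerous ones. The call of Col5a2 was lost without the male (adjusted p = 0.0605) or the female precancerous library (0.0837). That of Col5a1 was lost without the male precancerous (0.144), the female precancerous (0.132) or the female tumour library (0.131).

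Partners of the fibrils and elastic fibre genes were divided. Of the 8 tested, Col6a3, Sparc and Postn rose and none fell, nor was any lower at an unadjusted p under 0.05. The median log2 fold change was 0.61. All 12 were higher in the tumour than in the precancerous library in both sexes. Col6a3, a chain of the beaded type VI collagen, read 0.488, 0.435 and 1.56 FPKM in males and 0.999, 0.812 and 2.70 FPKM in females, both tumours being highest (log2 fold difference 1.76, SE 0.14, adjusted p = 0.00314). Sparc encodes osteonectin, which binds collagen and aids its assembly. It read 9.92, 10.1 and 26.4 FPKM in males and 16.1, 15.2 and 34.6 FPKM in females (log2 fold difference 1.25, SE 0.13, adjusted p = 0.00457), with both tumours above the other 4 libraries. Postn, periostin, read 0.855, 1.10 and 2.18 FPKM in males and 1.16, 1.60 and 2.22 FPKM in females (0.68, SE 0.16, adjusted p = 0.0344).

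Some of these calls were lost when a library was left out. Sparc lost its call without the male (adjusted p = 0.0704) or the female precancerous library (0.0607). Postn lost it without the male normal (0.0603), male tumour (0.109), male precancerous (0.281) or female precancerous library (0.145), and under DESeq2 (0.0749) and limma on log2(FPKM + 1) (0.0551).

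Col6a1 joins Col6a3 in type VI collagen but did not pass. Its levels were 1.18, 0.545 and 1.44 FPKM in males and 3.29, 1.8 and 2.65 FPKM in females (log2 fold difference 0.83, SE 0.24, adjusted p = 0.0604), and the female normal library was the highest. Col6a2, its neighbour 85161 bases away on chromosome 10, was not tested and read 0.573, 0.258 and 0.581 FPKM in males and 0.906, 0.740 and 1.07 FPKM in females. In both genes the precancerous library was the lowest of each sex.

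Fn1, fibronectin, is also made by hepatocytes for the plasma and was the most abundant of all 44 members per length in every library. It read 83.6, 133 and 192 FPKM in males and 170, 259 and 395 FPKM in females, a step up at each stage in both sexes. Between tumour and precancerous liver edgeR gave a log2 fold change of 0.54 (SE 0.18, adjusted p = 0.087). DESeq2 called it (adjusted p = 0.00111), as did limma on log2(FPKM + 1) (0.0371). Bgn, Lum and Col14a1, a pair of small proteoglycans and a fibril-associated collagen, had log2 fold changes of 0.31, 0.23 and 0.14 and did not pass. Bgn read 7.69, 6.63 and 8.46 FPKM in males and 17.0, 15.4 and 19.3 FPKM in females, and Lum 4.18, 2.66 and 3.74 and 6.55, 5.41 and 5.80 FPKM. Col14a1 read 5.48, 6.24 and 7.64 FPKM in males and 8.52, 9.18 and 9.48 FPKM in females, and its direction turned without the male tumour library (log2 fold change -0.02).

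Lum lies 47338 bases from Dcn on the same strand of chromosome 10, and the neighbours went apart. The FPKM ratio of Dcn to Lum was 15.1, 28.0 and 11.6 in males and 20.2, 26.0 and 12.2 in females, lowest in the tumour of each sex. Fbn1, fibrillin, read 0.329, 0.267 and 0.760 FPKM in males and 0.397, 0.326 and 1.03 FPKM in females. It was too low for the test but had a log2 fold change of 1.53 (SE 0.19, adjusted p = 0.00241) in edgeR with no filter on low values. In the annotation 20.1% of its exonic bases lie under a gene of the opposite strand, Gm9913, which held 0 to 4 counts per library. Col12a1 held 12, 6 and 65 counts in males and 39, 42 and 86 in females, and Eln, elastin, 13, 11 and 24 and 66, 39 and 48 counts. The ratio of tumour to precancerous liver for Col12a1 was 10.2 in males (interval 4.42 to 28.7) and 1.67 in females (1.14 to 2.48), and the intervals of Eln held 1 in both sexes.

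A basement membrane gene, Nid1, had the highest tumour level per length of the 19 members that rose. Of the 6 basement membrane genes tested, Col4a1, Col4a2, Lamc1 and Nid1 rose, none fell, and the median log2 fold change was 1.63. Nid1 encodes nidogen, which links the laminin and type IV collagen networks (chromosome 13, 13437602 to 13512275). It read 3.06, 8.04 and 52.6 FPKM in males and 4.61, 20.2 and 73.8 FPKM in females, from 111 to 8226 counts. The 3 tissues did not overlap: both normal libraries were lowest, both precancerous ones lay between, and both tumours were highest. Tumour exceeded precancerous liver by a log2 fold change of 2.24 (SE 0.24, adjusted p = 0.00509), with a ratio of 6.54 in males (interval 5.83 to 7.36) and 3.66 in females (3.48 to 3.85).

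Col4a1 and Col4a2 encode the chains of the common type IV collagen. They lie head to head on chromosome 8, from 11198423 to 11312826 and from 11312805 to 11449287, and their annotated spans overlap by 22 bases. Col4a1 read 6.29, 4.34 and 22.9 FPKM in males and 7.76, 8.15 and 35 FPKM in females. Col4a2 read 4.78, 3.49 and 14.6 FPKM and 5.34, 5.66 and 24.4 FPKM. In both genes the tumours were far above the other 4 libraries, which overlapped among themselves. Their log2 fold changes were 2.21 (SE 0.17, adjusted p = 0.00314) and 2.06 (SE 0.18, adjusted p = 0.00362). The FPKM ratio of Col4a1 to Col4a2 stayed between 1.25 and 1.57 over the 6 libraries, as against a range from 0.545 to 2.27 for Col1a1 to Col1a2.

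Lamc1, the gamma 1 chain of laminin, read 1.8, 1.96 and 4.29 FPKM in males and 2.32, 2.53 and 6.27 FPKM in females (log2 fold difference 1.20, SE 0.12, adjusted p = 0.0044). Its call was lost without the female precancerous library (adjusted p = 0.0626). Lamb1, the beta 1 chain, was too low for the test and read 0.876, 0.421 and 0.640 FPKM in males and 0.834, 0.771 and 1.03 FPKM in females. The FPKM ratio of Nid1 to Lamc1 went from 1.70 and 1.99 in male and female normal liver to 12.3 and 11.8 in the tumours.

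Col18a1 and Col15a1 encode the basement membrane collagens that release endostatin and restin. Col18a1 is made by hepatocytes too, and it was at 61.5, 56.0 and 43.2 FPKM in males and 105, 93.4 and 72.6 FPKM in females. Each step was downward in both sexes, by amounts that did not pass (log2 fold difference -0.40, SE 0.16, adjusted p = 0.125) except in DESeq2 (0.0101). Col15a1 read 1.30, 1.89 and 1.98 FPKM in males and 1.65, 1.81 and 3.36 FPKM in females (0.49, SE 0.23, adjusted p = 0.178). It passed without the male tumour library (log2 fold change 0.76, adjusted p = 0.0468).

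Among remodelling enzymes and inhibitors, Loxl2, Timp1, Timp3 and Mmp14 rose, none of the 6 tested fell, and the median log2 fold change was 1.06. Loxl2 and Timp1 passed the filter on low values only with the tumour libraries. Timp1 encodes an inhibitor of most metalloproteinases that is induced in fibrosis and inflammation (chromosome X, 20870166 to 20874735). It had 0, 1 and 14 counts in males and 4, 6 and 154 in females, or 0, 0.105 and 1.38 FPKM and 0.164, 0.288 and 6.04 FPKM. Both tumours were above the other 4 libraries, and the female tumour was above the male one. Over both sexes the log2 fold change was 4.24 (SE 0.43, adjusted p = 0.00473), the largest among the 36. The ratio was 13.1 in males, with an interval from 2.0 to 555 because of the single count, and 21 in females (9.41 to 58.0). The call was lost without the female tumour (adjusted p = 0.0583) or the female precancerous library (0.132).

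The 250 bases upstream of Timp1 are shown as those of the member with the largest rise (RefSeq, GRCm38.p6, chrX:20869916-20870165, plus strand), with the same 3 motifs in capitals.
Timp1: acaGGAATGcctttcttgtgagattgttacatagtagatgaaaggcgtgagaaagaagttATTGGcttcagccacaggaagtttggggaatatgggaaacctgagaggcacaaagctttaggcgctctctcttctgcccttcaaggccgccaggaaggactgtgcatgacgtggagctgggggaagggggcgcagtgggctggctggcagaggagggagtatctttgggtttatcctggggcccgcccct
GGAATG and, on the opposite strand, CCAAT are present, and TATAA is not in this window.

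Timp3, an inhibitor that stays bound to the matrix, read 3.34, 5.62 and 13.2 FPKM in males and 5.42, 7.19 and 11.7 FPKM in females, with both tumours above the 4 other libraries (log2 fold difference 0.95, SE 0.21, adjusted p = 0.0313). In the annotation 21.3% of its exonic bases lie under exons of Syn3 on the other strand. Syn3 was listed at 1.05, 1.87 and 3.80 FPKM in males but at most 0.115 FPKM in females, and as no source used here states whether strand was used in counting, the male value of either gene is uncertain. Timp2, which also helps to activate Mmp2, read 2.28, 2.41 and 9.41 FPKM in males and 4.76, 4.76 and 6.59 FPKM in females. The ratio of tumour to precancerous liver was 3.90 in males (interval 2.99 to 5.17) and 1.38 in females (1.20 to 1.61), and the test over both sexes was not passed (log2 fold difference 1.17, SE 0.40, adjusted p = 0.0923). Timp2 was called without the female tumour library (log2 fold change 1.94, adjusted p = 0.00589) and in DESeq2 (adjusted p = 0.0451).

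Mmp14, the membrane-bound metalloproteinase that activates Mmp2, stepped up at each stage, with 3.52, 5.98 and 9.86 FPKM in males and 9.21, 13.8 and 22.3 FPKM in females. Tumour against precancerous liver gave 0.68 on the log2 scale (SE 0.11, adjusted p = 0.0153). Mmp2, a gelatinase, stayed between 0.382 and 1.18 FPKM and did not pass (0.51, SE 0.28, adjusted p = 0.238). Loxl2, a lysyl oxidase that crosslinks collagen, read 0.495, 0.479 and 1.03 FPKM in males and 0.467, 0.482 and 1.82 FPKM in females, both tumours being highest (log2 fold difference 1.57, SE 0.31, adjusted p = 0.0226). Lox and Loxl1 of the same family were too low for the test. Lox held 2, 1 and 10 counts in males and 4, 5 and 21 in females, with a female ratio of tumour to precancerous liver of 3.43 (interval 1.26 to 11.6). Loxl1 held 3, 3 and 5 counts and 38, 13 and 42 counts.

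Several of these calls were lost when a library was left out. Timp3 lost its call without the male tumour (adjusted p = 0.0738), male precancerous (0.228) or female precancerous library (0.181). Loxl2 lost it without the male precancerous (0.114), female tumour (0.107) or female precancerous library (0.221), and Mmp14 without the male (0.137) or female precancerous library (0.159).

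Of 6 tested contractile and signalling genes, Acta2, Tagln and Pdgfrb rose and none fell, and the median log2 fold change was 1.10. Acta2 encodes the smooth muscle actin that marks myofibroblasts and vascular muscle (chromosome 19, 34241090 to 34255336, minus strand). It read 0.749, 0.815 and 15.7 FPKM in males, from 8, 10 and 206 counts, and 3.47, 2.31 and 19.2 FPKM in females. Both tumours were well above the 4 other libraries. The log2 fold change was 3.50 (SE 0.42, adjusted p = 0.00682), and the ratio was 19.3 in males (interval 10.3 to 40.9) and 8.28 in females (6.37 to 10.9).

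Acta2 is a known target of serum response factor, which binds the CArG box. A pair of CArG-like sites with 1 base other than A or T in the core, in capitals, stands in the promoter window of Acta2 (RefSeq, GRCm38.p6, minus strand). The site named 1 is in chr19:34255438-34255467, from -84 to -75 of the RefSeq start, and that named 2 in chr19:34255388-34255417, from -34 to -25.
Acta2 site 1: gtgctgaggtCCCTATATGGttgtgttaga
Acta2 site 2: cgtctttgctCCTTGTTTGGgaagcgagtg
On either strand 8.59% of all promoter windows held such a run with 1 other base and 6 of the 29 members did (Acta2, Col1a2, Col6a3, Lrat, Mmp14 and Timp3). A CArG box with no other base was in 1.47% of all windows and in 0 of the 29.

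Tagln, the smooth muscle protein transgelin, read 3.47, 5.40 and 18.6 FPKM in males and 3.75, 3.31 and 11.3 FPKM in females, both tumours being highest (log2 fold difference 1.75, SE 0.24, adjusted p = 0.00879). Of its exonic bases, 67.9% lie under genes of the opposite strand, mainly Pcsk7. Pcsk7 read 7.89, 9.39 and 6.47 FPKM in males and 7.66, 8.52 and 6.26 FPKM in females. Its log2 fold change in tumour over precancerous liver was -0.52 (edgeR adjusted p = 0.0275). Since no source used here states how strand was handled in counting, the values of Tagln are uncertain. The part of Pcsk7 reads in them was not tested. Acta2 lost its call without the male (adjusted p = 0.0681) or the female precancerous library (0.0688), and Tagln likewise (0.0727 and 0.0928).

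Pdgfrb, the receptor for platelet-derived growth factor B on stellate cells and pericytes, read 0.781, 0.849 and 1.91 FPKM in males and 1.69, 1.69 and 3.30 FPKM in females. Within each sex the tumour was the highest, and the male tumour lay above the female normal and precancerous libraries (log2 fold difference 1.02, SE 0.15, adjusted p = 0.00981), and the call was lost without the male (0.106) or female precancerous library (0.114). Pdgfra, the related receptor of fibroblasts, held 28, 35 and 35 counts in males and 131, 148 and 158 in females, with intervals of the tumour to precancerous ratio that held 1 in both sexes. Vim, the filament protein vimentin, read 1.32, 2.27 and 6.07 FPKM in males and 2.73, 2.33 and 4.54 FPKM in females and missed the threshold (1.18, SE 0.33, adjusted p = 0.0576). It was called without the male normal (0.014), the female normal (0.0123) or the female tumour library (0.0303), and in DESeq2 (0.025).

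Des, desmin, a filament protein of stellate and muscle cells, was the member whose direction differed between the sexes. It read 0.650, 0.566 and 0.968 FPKM in males and 1.57, 1.04 and 0.859 FPKM in females. The intervals of tumour over precancerous liver held 1 in both sexes (ratio 1.71, 0.918 to 3.29, in males and 0.828, 0.584 to 1.18, in females). The log2 fold change was 0.15 (adjusted p = 0.82), and -0.38 without the male tumour library. Tgfb1, the cytokine that drives collagen synthesis in stellate cells, read 1.02, 1.32 and 1.65 FPKM in males and 3.13, 3.10 and 4.30 FPKM in females (0.39, SE 0.16, adjusted p = 0.131).

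Genes of the same pathways outside the 44 were taken from 8 lists. Of 136 listed names, 79 were tested in tumour against precancerous liver, and 32 rose and 13 fell. Some that rose passed the filter on low values only with the tumour libraries, among them Col4a3, Col4a4, Lama5 and Plat. Their entry to the test depended on their tumour level, so the counts of risers in these lists are no independent support. Among other quiescent stellate genes 1 of 16 tested rose and 7 fell. The nerve growth factor receptor Ngfr read 0.871, 1.60 and 0.158 FPKM in males and 1.96, 1.5 and 0.362 FPKM in females (log2 fold change -2.53, adjusted p = 0.0171), and Vipr1, a receptor for vasoactive intestinal peptide, had a log2 fold change of -2.0 (adjusted p = 0.00289).

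Other collagens included 3 that rose and 1 that fell among 6 tested. Col4a3 and Col4a4, chains of the type IV collagen of kidney and lung, had log2 fold changes of 3.88 (adjusted p = 0.00596) and 3.56 (0.00271). Col4a3 read 0.107, 0.226 and 8.58 FPKM in males and 0.109, 1.22 and 11.6 FPKM in females. Col8a1, a short-chain collagen of vessels, had a log2 fold change of 2.39 (adjusted p = 0.00672). Of 6 other basement membrane genes 5 rose and none fell, led by the laminin chain Lama5 (3.09, adjusted p = 0.00279), with Nid2 (1.22) and Lamb2 (1.09). Lama5 read 0.391, 0.388 and 4.76 FPKM in males and 0.720, 1.02 and 7.04 FPKM in females.

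Matrix glycoproteins and proteoglycans outside the 44 showed 5 risers and 1 faller among 10 tested. Spp1 (osteopontin), Thbs1 (thrombospondin 1) and Tnc (tenascin C) had log2 fold changes of 3.73, 3.20 and 3.05. In the folding and crosslinking list 5 of 11 rose and 2 fell. The collagen chaperone Serpinh1 read 4.08, 3.22 and 8.54 FPKM in males and 4.92, 2.82 and 8.47 FPKM in females (1.48, adjusted p = 0.00605), the procollagen protease Adamts14 had a log2 fold change of 2.39, and the enhancer of procollagen cleavage Pcolce2 one of -3.08 (adjusted p = 0.00426).

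In the list of other proteases and inhibitors 4 of 10 rose and 2 fell. The plasminogen activator Plat read 0.132, 0.172 and 6.29 FPKM in males and 0.134, 0.131 and 3.86 FPKM in females (log2 fold change 4.95, adjusted p = 0.00271). The collagenase Mmp13 had a log2 fold change of 4.46. Of 12 genes of TGF beta and PDGF signalling 6 rose and none fell, with Pdgfb at 2.26, Tgfbr2 at 2.23 and Tgfb3 at 1.89 on the log2 scale. Tgfbr2, the type II receptor for TGF beta, read 6.87, 13.1 and 50.5 FPKM in males and 6.32, 11.7 and 68.1 FPKM in females. Of 8 collagen receptors 3 rose and none fell, namely Itga2 (4.11), Ddr1 (2.95) and Itgav (0.64).

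Markers of other cells rose in some lists and fell in others. Summed levels of 7 smooth muscle and pericyte markers were 1.32, 1.78 and 8.65 FPKM in males and 3.44, 3.31 and 8.96 FPKM in females, and all 3 tested ones rose (Notch3, Myh11 and Smtn). Actg2 of that list held 0, 2 and 31 counts in males and 6, 0 and 48 in females. The sum over 5 capillary endothelial markers was 17.1, 20.4 and 55.1 FPKM in males and 38.3, 38.6 and 55.1 FPKM in females; 3 of 4 tested rose, with Esm1 at 3.25 on the log2 scale. Over 10 sinusoidal endothelial markers it was 83.1, 89.8 and 58.4 FPKM in males and 112, 112 and 63.6 FPKM in females; 5 of 10 fell and 1 rose. Kupffer cell and macrophage markers summed to 213, 324 and 138 FPKM in males and 277, 425 and 197 FPKM in females, and 7 of 9 fell.

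Cholangiocyte markers summed to 11.7, 9.00 and 121 FPKM in males and 12.6, 14.7 and 139 FPKM in females, mostly Spp1, which is also in the glycoprotein list. The duct keratins Krt7 and Krt19 of that list held 3 to 46 counts in any library. Portal fibroblast markers summed to 11.7, 29.7 and 26.6 FPKM and 35.6, 46.8 and 38.3 FPKM, mostly Gas6; Thy1 and Entpd2 rose among 3 tested. Mesothelial markers other than the keratin Krt8 held at most 22 counts in any library, and Upk1b at most 2. Cell division markers summed to 1.02, 1.08 and 6.75 FPKM and 1.72, 2.39 and 11.2 FPKM, and all 4 tested rose. Lymphocyte markers summed to 1.0 to 7.28 FPKM over the 6 libraries, and 2 of 2 tested rose.

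Stellate cell markers, 4 of whose 10 are among the 44, summed to 27.7, 30.8 and 41.9 FPKM in males and 44.7, 42.7 and 42.1 FPKM in females; 2 of 8 tested rose and 3 fell. The part of any of these cell types in the changes of the 44 was not tested.

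Precancerous was next set against normal liver, the step between wild-type liver and the transgenic liver beside a tumour. None of the 36 tested members was called by edgeR, where 0.105% of all genes tested rose and 0.149% fell, together 0.254%. At an unadjusted p under 0.05, 4 of the 36 were higher and 4 lower, where 976 and 831 of all 11435 genes tested were, a share not far from that of the members. DESeq2 called 4, with Nid1, Fn1 and Mmp14 higher and Ecm1 lower, where it called 210 of the 11435 genes higher and 158 lower, and limma on log2(FPKM + 1) called 0. The median log2 fold change of the 36 was -0.01. All 5 fibril collagens were lower in the precancerous library in both sexes, from -0.34 for Col5a1 to -0.80 for Col1a1 on the log2 scale, with adjusted p from 0.224 to 0.448. Over all 44 members, 13 were higher in both sexes, 18 lower in both, and 13 differed in direction. In the fit 18 of the 36 had a positive log2 fold change, beside 5512 of all 11435 genes.

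Nid1 had the largest difference in this step. The precancerous library held 2.63 times the normal share in males (interval 2.11 to 3.28) and 4.37 times in females (3.96 to 4.84), and edgeR gave a log2 fold change of 1.79 (SE 0.24, adjusted p = 0.0704). It was called with no filter on low values (adjusted p = 0.0222), with 1 FPKM required in all 6 libraries (0.0405), without the male tumour (0.0366) or the female tumour library (0.0304), and in DESeq2 (3.35e-08). Mmp14, Fn1 and Ecm1 had log2 fold changes of 0.66, 0.64 and -0.62 with adjusted p of 0.119, 0.217 and 0.126. In each sex 1 of the 44, Nid1, was at least 2-fold higher on the log2(FPKM + 1) scale and 0 were lower, where 1.92% of all genes tested were higher in males and 1.23% in females.

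**Figure D3:**
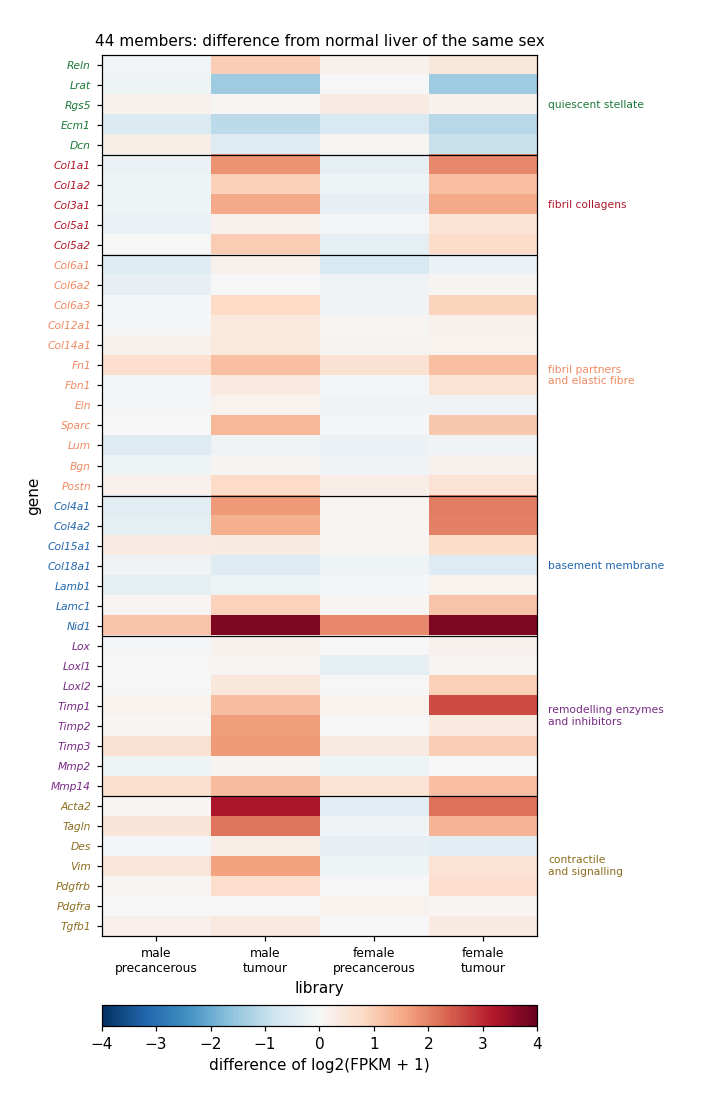
Difference of log2(FPKM + 1) from normal liver of the same sex for all 44 members (rows, grouped by role) in the precancerous and tumour library of males and females (columns); red is higher than normal, blue lower, and each cell is 1 library against 1 library. The precancerous columns are pale except for Nid1, while the tumour columns are red for Nid1, Acta2, Col4a1, Col1a1 and Timp1 and blue for Lrat, Ecm1 and Dcn.

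Tumour and normal liver differed by more members. Of the 36, 22 rose and 4 fell, where 17.3% and 16.1% of all genes tested did, together 33.4%, and the median log2 fold change was 1.18 beside 0.00054 for all genes. Among the 22 were again Timp1, Loxl2, Col1a2, Col5a2, Col6a3 and Col1a1, which passed the filter only with the tumour libraries. This comparison shares its tumour libraries with that against precancerous liver, so the pair is not independent. The fallers were Lrat (log2 fold change -2.31, adjusted p = 0.00151), Ecm1 (-1.19, 0.00276), Dcn (-0.75, 0.0189) and Col18a1 (-0.55, 0.0498). By group, 4 of 5 fibril collagens rose, as did 4 of 8 partners, 5 of 6 basement membrane genes, 4 of 6 remodelling genes, 4 of 6 contractile and signalling genes and 1 of 5 quiescent stellate genes.

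Nid1 rose by 4.03 on the log2 scale (SE 0.26, adjusted p = 0.00127), with a ratio of 17.2 in males (interval 14.2 to 21) and 16.0 in females (14.6 to 17.6). Timp1 had a log2 fold change of 5.21 (SE 0.47, adjusted p = 0.00233); its male normal library held 0 counts, so the male tumour was at least 3.81-fold higher with that 0 set to the floor of 3 counts, and the female ratio was 36.9 (14.1 to 137). Acta2 rose by 3.02 (SE 0.41, adjusted p = 0.00596) and Col1a1 by 2.79 (SE 0.29, adjusted p = 0.00306). Genes called here but not against precancerous liver were Reln (0.94, adjusted p = 0.0463), Fn1 (1.18, 0.00874), Col15a1 (0.82, 0.0475), Col18a1 and Vim (1.32, 0.0372). Col5a1 was called against precancerous liver and missed here (0.60, adjusted p = 0.0508), except without the male normal library (0.0493). Timp2 missed as well (1.18, adjusted p = 0.0801), except without the female tumour library (0.00323) and in DESeq2 (0.0328).

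Of the 26 calls, 19 were kept under all 6 omissions of a library. Col18a1 lost its call under each of the 6 (adjusted p from 0.112 to 0.169). Reln lost it without the male normal (0.199), male precancerous (0.0637), male tumour (0.123), female normal (0.137) or female precancerous library (0.0554). Dcn lost it without the male precancerous (0.0699), female normal (0.0785), female precancerous (0.0567) or female tumour library (0.0963), and Vim without the male normal (0.0591), male precancerous (0.0804), male tumour (0.0847) or female precancerous library (0.0745). Fn1 lost it without the male precancerous (0.0537), female normal (0.0507) or female precancerous library (0.06), Col15a1 without the male normal (0.119), female normal (0.202) or female tumour library (0.27), and Loxl2 without the female normal (0.146) or female tumour library (0.0898).

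Within single pairs, a difference of 2-fold or more on the log2(FPKM + 1) scale was counted. From precancerous liver to tumour 15 of the 44 were higher and 1 lower in males, and 13 were higher and 1 lower in females. The shares among all genes tested were 6.64% and 4.7% in males and 5.94% and 4.85% in females. In both sexes the 1 that was lower was Lrat. From normal liver to tumour 15 were higher and 2 lower in males, and 13 were higher and 2 lower in females, beside 8.38% and 5.97% of all genes in males and 7.42% and 6.97% in females. Lrat and Ecm1 were the 2 that were lower in both sexes.

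Most matrix genes were lower in the male than in the female libraries. Over the 3 tissues 23 of the 36 were called lower in males by edgeR and 0 higher, also 0 higher at an unadjusted p under 0.05 and 0 in DESeq2, where 18.2% of all genes tested were lower and 19.1% higher. The median log2 fold change, male over female, was -0.85 beside -0.01 for all genes. Timp1 (-2.21, adjusted p = 0.014), Ecm1 (-1.86, 0.00103), Col1a1 (-1.67, 0.0101), Tgfb1 (-1.49, 0.00355) and Col5a1 (-1.44, 0.00488) had the lowest values. Lrat (0.22, adjusted p = 0.228) and Tagln (0.40, adjusted p = 0.173) were the members on the other side of 0.

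These differences are those of 9-month-old males against 15-month-old females and cannot be told apart from age. The male libraries also held fewer counts. Genes rich in G and C read lower in the male libraries. In 5 equal bins of genes by GC content, the median log2 fold change of all genes went from 0.36 in the lowest bin through 0.16, -0.0025 and -0.21 to -0.45 in the highest. The 36 members had a GC content from 36.3% to 60.8%, with a median of 52.6%, and 23 lay in the top 2 bins. After the median of its bin was subtracted from each, the median of the 36 was -0.75, with 34 below that reference and 1, Tagln, above. Tagln is also the member with 67.9% of its exonic bases under genes of the opposite strand. In tumour against precancerous liver the bins differed little, with medians from 0.017 to 0.040.

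**Figure D4:**
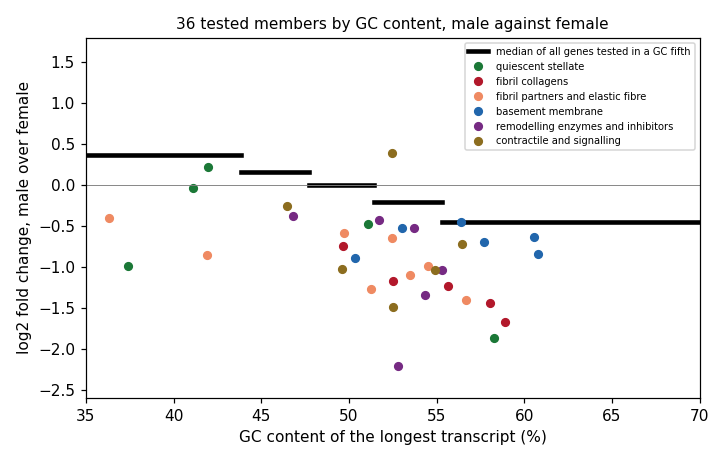
Log2 fold change of male over female libraries (edgeR) against GC content of the longest transcript for the 36 tested members, as points coloured by role; black bars are the medians of all genes tested in each of 5 GC bins, from 0.36 in the lowest to -0.45 in the highest. Of the 36 points 34 lie below the bar of their bin, and Tagln lies above it.

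Calls among the 23 were lost when either precancerous library was left out. Without the male one the log2 fold change was -0.996 for Dcn (-0.991 with all 6 libraries), -1.14 for Fn1 (-1.10) and -0.646 for Sparc (-0.647). That of Nid1 moved more, from -0.893 to -0.642. Such a fit has fewer residual degrees of freedom, so lost calls do not place the difference in the precancerous libraries. Of the 5 lowest, Col1a1 lost its call without the male precancerous library (adjusted p = 0.0503). Timp1 lost it without the male precancerous (0.0686), male tumour (0.194), female precancerous (0.0653) or female tumour library (0.224). A difference of tissue effect between the sexes has no test, since each sex has 1 library per tissue and the model would leave no residual. Values side by side give ratios of tumour to precancerous liver of 25.2 in males and 9.27 in females for Col1a1, 19.3 and 8.28 for Acta2, 3.90 and 1.38 for Timp2 and 2.81 and 1.29 for Reln, with intervals that do not overlap for Col1a1, Timp2 and Reln. Those of Acta2 (10.3 to 40.9 in males, 6.37 to 10.9 in females) overlapped. Col1a1, Acta2, Timp2 and Reln all had the larger ratio in males, but other members had it in females. Col15a1 had 1.05 in males (interval 0.813 to 1.35) and 1.85 in females (1.597 to 2.16), which do not overlap. Nor do those of Fn1, 1.44 (1.41 to 1.47) and 1.52 (1.51 to 1.54). Loxl2 had 2.16 and 3.77, with intervals that overlap. All these intervals cover counting error only. For Nid1 the male ratio was higher against precancerous liver (6.54 and 3.66) and about equal against normal liver (17.2 and 16.0), the precancerous step being larger in females.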

How the data were processed

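Messenger RNA of 6 liver libraries was sequenced with a stranded kit, per the labels' protocols. The submitters' processing notes name TopHat2 2.0.9 and Cuffdiff, and GRCm38 and mm10 as builds, but no role for any of them. How strand was handled in counting is not stated in any source used here. The authors deposited whole-number counts per gene, not normalized. The authors also deposited FPKM values, which equalled the count over 1 gene length and the library's count total (ratio 0.99998 to 1.00002 for genes of at least 50 counts).

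Members were found by gene symbol. The members and all gene lists were chosen with earlier results of these data known. Genes that reached 1 FPKM in 2 or more libraries were tested (11435 genes, 36 of the 44 members) with edgeR 4.0.16 in R 4.3.3: TMM normalization, quasi-likelihood test, additive model of sex and tissue over 6 libraries, 2 residual degrees of freedom, two-sided, Benjamini-Hochberg adjustment over all genes tested, call at an adjusted p under 0.05. Its residual is how far the sexes differ in a tissue effect. Without 1 library an arm can hold a single library, which is then assumed to vary like the others. The procedure was also run on simulated counts that held no difference between the sexes, so that run does not measure its error in these data. Single pairs have no test: ratios of counts per library total carry exact 95% intervals of counting error, counts of 2-fold differences use log2(FPKM + 1), and a fold against 0 uses a floor of 3 counts. The text names all 44 members and, from each other list, up to 3 tested genes with the largest absolute log2 fold change of tumour over precancerous liver; other marker genes are named for counts near 0, and genes on the opposite strand for their overlap. A few genes that this rule selects are not reported here. Alternatives were DESeq2 1.42.0, upper quartile scaling, library totals alone, other filters on low values, limma 3.58.1 on log2(FPKM + 1) and log2(FPKM + 0.1), no sex term, and leaving out each library. GC content and exon overlap come from GENCODE vM21, and promoters from RefSeq (GRCm38.p6).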

Additional observations from a re-analysis of the deposited data

How the results depend on the processing

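Depth limits the low members: 8 of the 44 were not tested, and the male libraries held fewer counts. With 1 library per group, no fit with the spread of repeated samples could be made. Sex is a term of the model, so tissues were compared within sex; each group holds 1 library, and no replicate numbers pair the libraries further. The count of members called in tumour against precancerous liver was 22; it was 13 of 22 tested with an FPKM of at least 1 required in all 6 libraries, 1 with no sex term, and 8 to 23 when each library was left out. For tumour against normal liver the count was 26; it was 17 under the stricter filter, 3 with no sex term and 20 to 23 without a library. In precancerous against normal liver 0 were called; DESeq2 called 4, and edgeR called 1 with no filter, 1 under the stricter filter and 0 to 1 without a library. For male against female the count was 23, with 15 under the stricter filter and 7 to 28 without a library. The stricter filter leaves fewer genes to test, and the fit with no sex term puts the sex difference into the residual. The other alternatives kept each of these counts within 1.5 times, and none moved the median of all genes by over 0.1 on the log2 scale. On the log2(FPKM + 0.1) scale 2 members in place of 1 were at least 2-fold apart between precancerous and normal liver in males, and likewise 2 in females. Direction turned without the male tumour library for Col14a1, whose log2 fold change in tumour against precancerous liver ran from -0.022 to 0.26 over the omissions, and for Des, from -0.38 to 0.87. Neither was called, and the cause was not tested.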
